A study of Drosophila melanogaster with 8 samples.

Results

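The genes described here act at the end of oogenesis and at egg activation: png, plu, gnu, wisp, cort, mtrm, sra and smg. They were taken by symbol from the gene tables of adult Drosophila melanogaster ovaries, and all 8 were found among 14094 genes. RNA sequencing compared ovaries carrying a germline driver alone with ovaries in which the same driver is labelled as directing RNA interference against stwl (stonewall), called a germline knockdown or GKD. There were 4 groups of 2 libraries. Control ovaries with nosGAL4 had the genotype nosGAL4;MKRS/TM6, their GKD counterparts nosGAL4;stwl RNAi/TM6, control ovaries with bamGAL4 the genotype bamGAL4, and their GKD counterparts bamGAL4>stwl RNAi/TM6. The nosGAL4 driver uses the regulatory region of nanos and the bamGAL4 driver that of bag of marbles, a gene of dividing germline cysts. The TM6 balancer is named for both GKD groups and for the nosGAL4 control but not for the bamGAL4 control, and MKRS for the nosGAL4 control alone. Balancers therefore differ between GKD and control with each driver as well as between the control groups, so a balancer effect cannot be told apart from the GKD effect, the driver or the difference between drivers. All flies were adults dissected from day 1 to day 3 after eclosion, and nothing in the labels says that the libraries of a group came from separate flies, so p-values measure the spread between these libraries, which may be technical.

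In Drosophila the oocyte stores mRNAs made by the nurse cells, stays arrested in meiosis, and resumes it when the egg passes into the oviduct and is activated by calcium. Activation turns on the PNG kinase, which switches translation of stored mRNAs on or off, while a meiosis-specific activator of the anaphase-promoting complex (APC/C) drives the exit from meiosis. The RNAs measured here are those present in the dissected ovary, before the egg is laid.

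PNG kinase is made of the catalytic subunit encoded by png (FBgn0000826, X:1356488-1357601, minus strand), the ankyrin repeat protein of plu (FBgn0003114, 2R:20262958-20263684, minus strand) and the activating subunit of gnu (FBgn0001120, 3L:14802380-14803360, minus strand). The gene wisp (FBgn0260780, X:11893943-11899920, plus strand) encodes a cytoplasmic poly(A) polymerase that lengthens the tails of stored mRNAs, that of cort among them. The product of cort (FBgn0000351, 2L:6674682-6676635, minus strand) is a female-specific APC/C activator of the Fizzy family, and that of mtrm (FBgn0010431, 3L:8413012-8414103, plus strand) binds and holds back Polo kinase until the APC/C removes it. The calcineurin regulator of sra (FBgn0086370, 3R:16186999-16197584, plus strand) is needed for activation, and smg (FBgn0016070, 3L:8990317-8997989, minus strand) encodes the RNA-binding protein Smaug, whose translation depends on PNG and which directs the removal of maternal mRNAs. Positions are those of the BDGP6.54 annotation, on the dm6 assembly. Exons of cort overlap 2 genes on the opposite strand, cup and CG34310, by 99 bases each. Those of sra overlap the opposite-strand gene Bin1 by 301 bases. The kit keeps strand, but no source used here says whether the counting did, so reads in these overlaps could belong to either gene.

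Library totals ran from 7473859 to 12174983 estimated counts, and 8398 to 10447 genes had a count. The targeted gene stwl was not lower in the libraries labelled GKD: it was at 23.1 and 16.9 CPM (counts scaled to a common library size) in nosGAL4 control against 61.1 and 27.7 in nosGAL4 stwl GKD, and at 18.2 and 21.0 in bamGAL4 control against 23.2 and 29.6 in bamGAL4 stwl GKD. With nosGAL4 it was higher (log2 fold change 1.15, SE 0.37, adjusted p = 0.0203, edgeR quasi-likelihood test), and with bamGAL4 the estimate was 0.43 (SE 0.36, adjusted p = 0.313). The GKD groups are therefore named by their labels throughout. Summed markers of late follicle cells (12 of 12 genes detected) lay at 18800 to 24200 CPM in the control groups, at 730 to 3870 CPM in nosGAL4 stwl GKD and at 91.2 to 113 CPM in bamGAL4 stwl GKD. By the same test 7 of these 12 genes were lower with nosGAL4, so not every one passed, and 12 with bamGAL4. With each driver 0 were higher. The 8 germline markers summed to 2280 to 3000 CPM in controls, 149 to 419 CPM in nosGAL4 stwl GKD and 47.6 to 92.2 CPM in bamGAL4 stwl GKD. Summed muscle markers (12 genes) ran the other way, from 772 to 891 CPM in controls to 41000 to 54800 CPM in GKD, as did markers of haemocytes and fat body (11 genes; 65.1 to 136 CPM against 4200 to 14900 CPM), and all 12 and 11 rose with each driver. Summed markers of early somatic ovary cells (12 genes) went from 171 to 234 CPM to 1570 to 2270 CPM, carried mostly by Fas3 and zfh1: 7 of the 11 tested rose with each driver, and slbo fell with bamGAL4 (-3.14, adjusted p = 0.0139). Summed neuron markers (8 genes) went from 4.67 to 10.9 CPM to 181 to 325 CPM, carried mostly by elav and cpx: 4 of the 6 tested rose with each driver, and Appl had estimates below 0 that did not pass (-1.33, adjusted p = 0.149, and -0.79, adjusted p = 0.353). Of all these markers, NimC1 and He were at 0 in both control groups and eater in nosGAL4 control, para in both control groups, Rdl in all 4 groups, en in both control groups, and bab1 in bamGAL4 control. The part of these differences in the results that follow was not tested, and in whole ovaries fewer germ cells cannot be told apart from less RNA per germ cell.

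The RNAs of the egg activation genes were lower in the libraries labelled stwl GKD, with both drivers. With nosGAL4, 6 of the 8 fell (plu, gnu, wisp, cort, mtrm and smg; edgeR quasi-likelihood test, adjusted p under 0.05 over the 8957 genes tested), against a background of 25.7% of all genes lower. None rose, against 33.5% of all genes higher; all 8 estimates were below 0, and DESeq2 also called 0 higher. With bamGAL4 all 8 fell, against 33.1% of all genes lower and 35% higher. The median log2 fold change of the 8 genes was -4.11 with nosGAL4 and -5.86 with bamGAL4, where the median over all genes was 0.11 and -0.06. Both GKD libraries were below both control libraries for all 8 genes with each driver, which held for 37.7% of all genes with nosGAL4 and 43.8% with bamGAL4. The sizes ran from a 1.40-fold difference for sra with nosGAL4, which did not pass the test, to falls of 909-fold for mtrm and 983-fold for plu with bamGAL4.

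**Figure D1:**
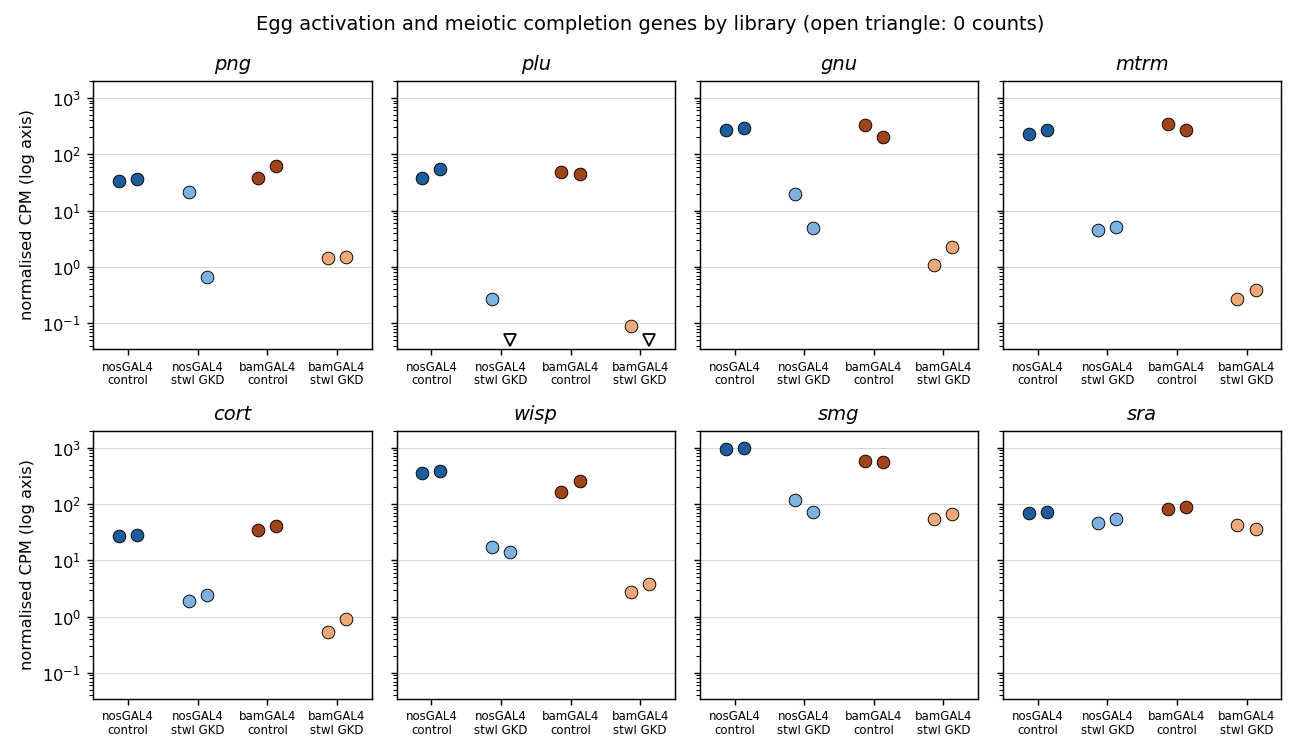
Normalised CPM (log axis) of each gene in each of the 8 libraries, 1 point per library, with libraries of 0 counts drawn as open triangles at the foot of the panel. Control libraries lie between 27.1 CPM (cort) and 973 CPM (smg); in the GKD libraries plu falls to 0.270 CPM or less, while sra stays between 36.7 and 54.1 CPM.

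Within the PNG kinase complex, plu was the subunit whose RNA nearly disappeared. It stood at 37.5 and 54.5 CPM in nosGAL4 control and at 48.6 and 44.5 CPM in bamGAL4 control. The nosGAL4 stwl GKD libraries held 0.270 and 0 CPM, and the bamGAL4 stwl GKD libraries 0.0886 and 0 CPM. In counts these were 2 against 1020 with nosGAL4 and 1 against 933 with bamGAL4, summed over the 2 libraries of each group. Given library size, the level was 347-fold lower with nosGAL4 (95% exact counting interval 95.7 to 2870) and 983-fold lower with bamGAL4 (176 to 38900), with adjusted p = 2.03e-06 and 9.94e-07 by edgeR's quasi-likelihood test. The libraries at 0 allow up to 3 counts, which is 0.398 CPM for nosGAL4 stwl GKD replicate 2 and 0.298 CPM for bamGAL4 stwl GKD replicate 2. These intervals and limits cover counting error only.

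The activating subunit gnu was the more abundant partner. It was at 270 and 296 CPM in nosGAL4 control and 329 and 202 CPM in bamGAL4 control. Its GKD libraries held 19.6 and 4.91 CPM with nosGAL4 and 1.06 and 2.29 CPM with bamGAL4. All GKD libraries were far under all controls, and the nosGAL4 pair lay above the bamGAL4 pair. It fell by 4.53 on the log2 scale with nosGAL4 (SE 0.63, adjusted p = 0.000555, edgeR) and fell by 7.31 with bamGAL4 (SE 0.75, adjusted p = 7.73e-05).

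The catalytic subunit png behaved differently in the nosGAL4 libraries. Controls were at 33.3 and 35.8 CPM with nosGAL4 and at 38.1 and 60.9 CPM with bamGAL4. In nosGAL4 stwl GKD replicate 1 held 21.1 CPM (156 counts) and replicate 2 held 0.663 CPM (5 counts), while bamGAL4 stwl GKD held 1.42 and 1.49 CPM. The first of these libraries was below both nosGAL4 controls but nearer to them than the other 3 GKD libraries, which were near 1 CPM. The nosGAL4 estimate of -1.67 (log2, SE 1.14) did not pass the test (adjusted p = 0.258, edgeR); it was -5.69 with adjusted p = 1.51e-06 without nosGAL4 stwl GKD replicate 1, and -0.73 with adjusted p = 0.0662 without replicate 2. With bamGAL4 png fell by 5.08 (SE 1.38, adjusted p = 0.0204). That call was lost without bamGAL4 stwl GKD replicate 1 (adjusted p = 0.138), without replicate 2 (0.13) and without nosGAL4 control replicate 1 (0.0506), and it lay just inside the threshold, at 0.05 after rounding, without nosGAL4 control replicate 2, with estimates from -5.12 to -5.05. It was also lost with no filter on low counts (adjusted p = 0.0526).

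The ratios between the subunit RNAs differed among the GKD libraries. Scaled by exon length, to CPM per kilobase (kb), gnu exceeded png by 9.78 and 9.96 times in nosGAL4 control and by 10.4 and 4.00 times in bamGAL4 control. In nosGAL4 stwl GKD the ratio was 1.12 in replicate 1 and 8.93 in replicate 2, and in bamGAL4 stwl GKD it was 0.905 and 1.85. The ratio of plu to png was 1.32 to 2.75 in the 4 control libraries and 0 to 0.113 in the 4 GKD libraries. The ratios were not tested.

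Libraries of nosGAL4 stwl GKD replicate 1 and replicate 2 thus differed in the kinase subunits more than in the other 5 genes. On the log2 scale replicate 1 exceeded replicate 2 by 4.89 for png, 2.66 for plu and 1.99 for gnu. The gap was 0.75 for smg and 0.28 for wisp, and it was below 0 for mtrm (-0.13), sra (-0.25) and cort (-0.33). For png, 98.4% of all genes had a smaller gap between these 2 libraries. The plu gap rests on 2 counts against 0. Replicate 1 also held more late follicle cell marker RNA (3870 against 730 CPM) and more germline marker RNA (419 against 149 CPM); the part of this in the png and gnu gaps was not tested.

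**Figure D2:**
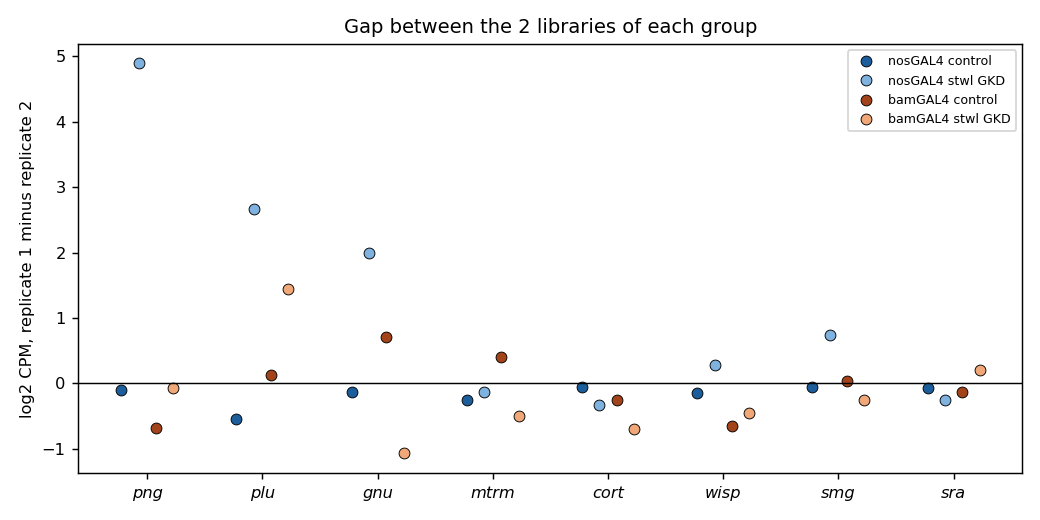
Log2 difference in normalised CPM between replicate 1 and replicate 2 of each group (vertical axis) for each gene (horizontal axis), 1 point per group. Most points lie near 0, and png in nosGAL4 stwl GKD stands at 4.89, followed by plu at 2.66 and gnu at 1.99.

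The poly(A) polymerase gene wisp and its target cort both fell with each driver. For wisp the controls held 353 and 393 CPM with nosGAL4 and 162 and 255 CPM with bamGAL4. Its GKD libraries held 17.4 and 14.3 CPM with nosGAL4 and 2.75 and 3.78 CPM with bamGAL4. The groups did not overlap, and the bamGAL4 libraries were lower than the nosGAL4 libraries in GKD and in control. It fell by 4.55 on the log2 scale with nosGAL4 (SE 0.31, adjusted p = 1.2e-06, edgeR) and fell by 6.0 with bamGAL4 (SE 0.34, adjusted p = 3.55e-07).

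The APC/C activator gene cort had the lowest control level per kb of the 8. It was at 27.1 and 28.1 CPM in nosGAL4 control and at 34.8 and 41.4 CPM in bamGAL4 control. In GKD it was at 1.89 and 2.39 CPM with nosGAL4 and at 0.532 and 0.894 CPM with bamGAL4. Every GKD library lay under every control, and the bamGAL4 pair was the lower. It fell by 3.68 on the log2 scale with nosGAL4 (SE 0.34, adjusted p = 8.92e-06, edgeR) and fell by 5.73 with bamGAL4 (SE 0.38, adjusted p = 8.34e-07).

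The Polo inhibitor gene mtrm showed the largest fitted fall with bamGAL4 among the 8 and was the gene whose difference between drivers passed the test. Its controls held 231 and 275 CPM with nosGAL4 and 352 and 265 CPM with bamGAL4. The nosGAL4 stwl GKD libraries held 4.59 and 5.04 CPM, and the bamGAL4 stwl GKD libraries 0.266 and 0.397 CPM, from 3 and 4 counts. The control groups overlapped, whereas the GKD groups were separate from each other and from the controls. It fell by 5.71 on the log2 scale with nosGAL4, a 52.3-fold difference (SE 0.29, adjusted p = 3.27e-07, edgeR). With bamGAL4 7 counts stood against 6038, which is 909-fold lower (95% exact counting interval 441 to 2260; adjusted p = 1.99e-07, edgeR). The RNA of polo, the kinase gene it restrains, fell less, by 2.68 with nosGAL4 (SE 0.23, adjusted p = 5.17e-06) and fell by 2.71 with bamGAL4 (SE 0.23, adjusted p = 3.98e-06). Per kb, mtrm exceeded polo by 1.88 to 3.57 times in the 4 control libraries; the ratio was 0.218 and 0.254 in nosGAL4 stwl GKD and 0.0165 and 0.0219 in bamGAL4 stwl GKD, which was not tested.

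The Smaug gene smg fell with both drivers. It was at 935 and 973 CPM in nosGAL4 control and at 585 and 568 CPM in bamGAL4 control. In GKD it was at 119 and 71.0 CPM with nosGAL4 and at 55.2 and 65.7 CPM with bamGAL4. It was the most abundant of the 8 in CPM in every library, and its GKD groups did not overlap. It fell by 3.33 on the log2 scale with nosGAL4 (SE 0.28, adjusted p = 5.11e-06, edgeR) and fell by 3.25 with bamGAL4 (SE 0.28, adjusted p = 4.83e-06). The difference between the 2 effects was -0.07 (SE 0.37, adjusted p = 0.941).

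The calcipressin gene sra was the least changed. It was at 68.0 and 71.8 CPM in nosGAL4 control and at 81.5 and 89.3 CPM in bamGAL4 control. In GKD it was at 45.5 and 54.1 CPM with nosGAL4 and at 42.1 and 36.7 CPM with bamGAL4. The GKD libraries were below their controls by less than 3-fold in every pairing. With nosGAL4 the log2 fold change was -0.49 (SE 0.22, adjusted p = 0.0766, edgeR), which did not pass the test. It was -0.90 with adjusted p = 0.0065 when scaled to library totals, -1.0 with 0.0195 when scaled to ribosomal protein genes, and -0.59 with 0.0279 after a correction for exon length. Without nosGAL4 stwl GKD replicate 2 it was -0.63, just inside the threshold at 0.05 after rounding. With bamGAL4 it fell by 1.12 (SE 0.22, adjusted p = 0.00125), and scaling to ribosomal protein genes ended that call (-0.25, adjusted p = 0.531).

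**Figure D3:**
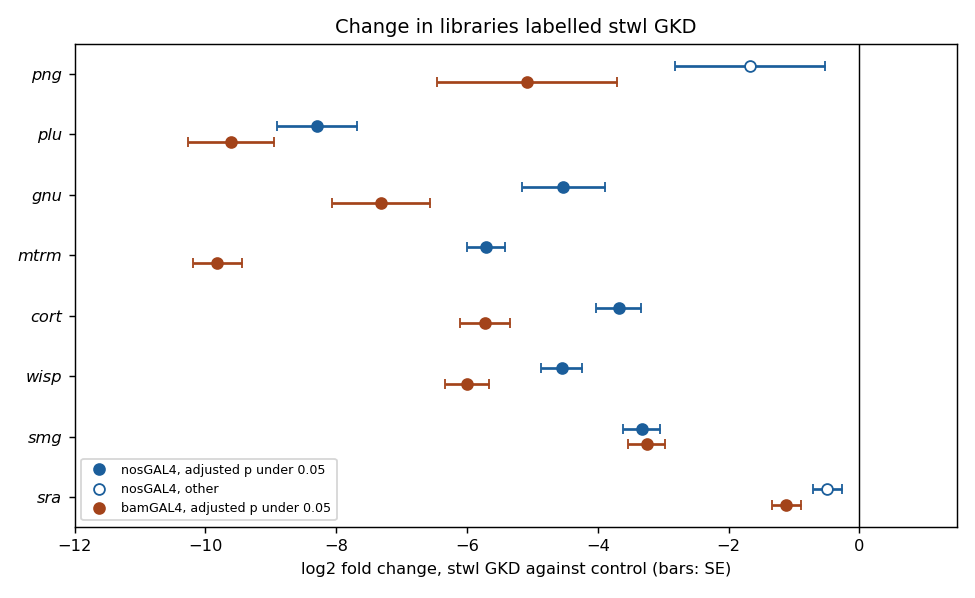
Log2 fold change of each gene in libraries labelled stwl GKD against their controls (horizontal axis; bars, SE), for nosGAL4 in blue and bamGAL4 in red, with open points where the adjusted p was not under 0.05. All but sra and, with nosGAL4, png lie below -3, and the bamGAL4 point lies below the nosGAL4 point for every gene except smg; the values of plu depend on the prior count of 0.125.

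Between the drivers, the estimate was lower with bamGAL4 for all but smg, and the difference passed the test for mtrm alone. The nosGAL4 effect minus the bamGAL4 effect was 4.11 for mtrm on the log2 scale (SE 0.47, adjusted p = 0.0031, edgeR), where 1.52% of all genes were called higher and 1.16% lower in this contrast. Of the others cort came nearest, at 2.05 (SE 0.50, adjusted p = 0.0553), followed by wisp at 1.45 (SE 0.40, adjusted p = 0.0725) and gnu at 2.78 (SE 0.88, adjusted p = 0.115). DESeq2 called all 4 of these, among 4.95% of all genes higher in its test. The difference for png was 3.41 with an SE of 1.73 (adjusted p = 0.288), and for sra 0.63 with an SE of 0.31 (adjusted p = 0.235). No gene was called lower in this contrast: smg, with the only negative estimate, had an unadjusted p of 0.844, and DESeq2 called 0.

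Compared directly, bamGAL4 stwl GKD was lower than nosGAL4 stwl GKD for mtrm and wisp, among 2.02% of all genes lower and 2.12% higher; these libraries also enter the comparisons above. The mtrm counts were 7 against 72, which is 14.7-fold lower (95% exact counting interval 6.78 to 37.9; adjusted p = 0.00206, edgeR), and wisp was lower by a log2 fold change of -2.28 (SE 0.31, adjusted p = 0.00574). Fitted on these 4 libraries alone, mtrm had an adjusted p of 0.0616 and wisp of 0.0505. Without bamGAL4 stwl GKD replicate 1 the adjusted p of wisp was 0.102. No gene was called higher, all 8 estimates being below 0, and DESeq2 called 0 higher.

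Between the control groups 0 of the 8 genes were called by edgeR, against 3.11% of all genes lower and 3.68% higher in bamGAL4. At an unadjusted p under 0.05 there were 2, wisp and smg, both lower, as were 10.7% of all genes. DESeq2 also called both lower (adjusted p = 0.00591 and 0.0153), among 7.09% of all genes in its test. In edgeR wisp had a log2 fold change of -0.84 (SE 0.26, adjusted p = 0.0825) and smg of -0.73 (SE 0.26, adjusted p = 0.118). Both were called in a fit of the 4 control libraries alone (adjusted p = 0.0409 and 0.0382). Neither was called by edgeR after a correction for exon length. There wisp was at -0.44 (adjusted p = 0.335) and smg at -0.24 (adjusted p = 0.704). Of 8919 genes tested with that correction, 38 were lower and 38 higher between the control groups.

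Per kb of exon, the order of the genes in controls was replaced by another in GKD. In nosGAL4 control gnu was highest at a mean of 306 ± 20.0 CPM per kb (SD, n = 2), then mtrm at 232 ± 28.6 and smg at 160 ± 4.41. Below them plu (74.6 ± 19.5) and wisp (70.2 ± 5.27) overlapped, as did png (31.0 ± 1.63) and sra (29.5 ± 1.12), and cort was lowest at 16.7 ± 0.388. In bamGAL4 control gnu (287 ± 97.5) and mtrm (283 ± 55.9) overlapped at the top, smg (96.7 ± 1.98) and plu (75.6 ± 4.71) followed, png, wisp and sra overlapped between 30.5 and 54.7, and cort was again lowest at 23.0 ± 2.80.

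In nosGAL4 stwl GKD the order differed between the libraries. Means were 21.0 ± 2.56 CPM per kb for sra (SD, n = 2), 15.9 ± 5.70 for smg, 13.3 ± 11.3 for gnu and 9.76 ± 13.0 for png. In replicate 1 gnu (21.2), smg (20.0), sra (19.2) and png (18.9) lay close together, whereas in replicate 2 sra (22.8) and smg (11.9) stood above gnu (5.32) and png was at 0.595. The other means were 4.41 ± 0.289 for mtrm, 2.98 ± 0.413 for wisp, 1.29 ± 0.212 for cort and 0.219 ± 0.310 for plu, and png in replicate 2 was below the range of the first 3 of these. In bamGAL4 stwl GKD sra was at 16.6 ± 1.62 and smg at 10.1 ± 1.24, with every other gene below 2.5 CPM per kb. Of the summed level per kb of the 8 genes, sra made up 3.10% to 4.74% in the control libraries, 21.7% and 46.2% in nosGAL4 stwl GKD and 57.9% and 48.5% in bamGAL4 stwl GKD. Together the 8 genes took 0.167% to 0.241% of the counts of a control library, 0.0135% to 0.0201% in nosGAL4 stwl GKD and 0.00959% to 0.0101% in bamGAL4 stwl GKD.

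Since summed germline markers were lower in the GKD libraries, the fit was repeated with libraries scaled to the summed counts of 10 nuage and piRNA genes of the germline (vas, aub, AGO3, spn-E, krimp, tej, papi, shu, mael and squ). Their sum was 998 to 1320 CPM in controls, 520 and 322 CPM in nosGAL4 stwl GKD and 174 and 236 CPM in bamGAL4 stwl GKD. In raw counts this was 0.0161% to 0.159% of all counts of a library. Not all of them moved together: spn-E had adjusted p = 0.966 with nosGAL4 and 0.631 with bamGAL4, and papi rose with bamGAL4 (log2 fold change 1.60, adjusted p = 0.000476, edgeR). In bamGAL4 stwl GKD spn-E (44.2 and 73.5 CPM) and papi (66.8 and 65.8 CPM) were the highest of the 10 and made up a large part of the sum. In bamGAL4 control they were at 55.3 and 78.5 CPM and at 16.8 and 26.8 CPM. With nosGAL4 spn-E was at 90.1 and 88.8 CPM in control and at 116 and 65.5 CPM in GKD. There papi was at 31.1 and 36.2 CPM in control and at 48.2 and 53.2 CPM in GKD. The 8 germline markers fell further with bamGAL4, from 2310 and 2280 CPM to 47.6 and 92.2 CPM. A fall relative to the 10 genes need not be a fall relative to those markers. This scaling raised the median log2 fold change of all genes by 1.70 with nosGAL4 and by 2.36 with bamGAL4.

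Relative to the sum of these 10 genes, 6 of the 8 were still called lower with nosGAL4, against 3.27% of all genes, and 5 with bamGAL4, against 3.18%. The gene sra turned and was called higher with both drivers, as were 68.7% of all genes with nosGAL4 and 77% with bamGAL4. The falls that held with both drivers were those of plu, gnu, wisp, cort and mtrm. On this scale mtrm fell by 4.0 with nosGAL4 (SE 0.50, adjusted p = 4.9e-13, edgeR) and fell by 7.52 with bamGAL4 (SE 0.64, adjusted p = 7.26e-24). The TMM fit gave mtrm larger falls with smaller SEs, yet larger adjusted p-values (3.27e-07 and 1.99e-07, edgeR). Adjusted p-values on this scale are therefore not comparable with those of the TMM fit, and its calls may be less strict. The log2 fold change of cort was -1.97 (SE 0.61, adjusted p = 0.00261) and -3.43 (SE 0.67, adjusted p = 1.41e-06). The Smaug gene smg fell by 1.70 with nosGAL4 (adjusted p = 0.000414) and stood at -0.91 with bamGAL4 (adjusted p = 0.0507), and png at -0.28 (adjusted p = 0.812) and -2.75 (adjusted p = 0.0566). For sra the log2 fold change became 1.25 with nosGAL4 (SE 0.44, adjusted p = 0.00763) and 1.26 with bamGAL4 (SE 0.44, adjusted p = 0.00623).

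**Figure D4:**
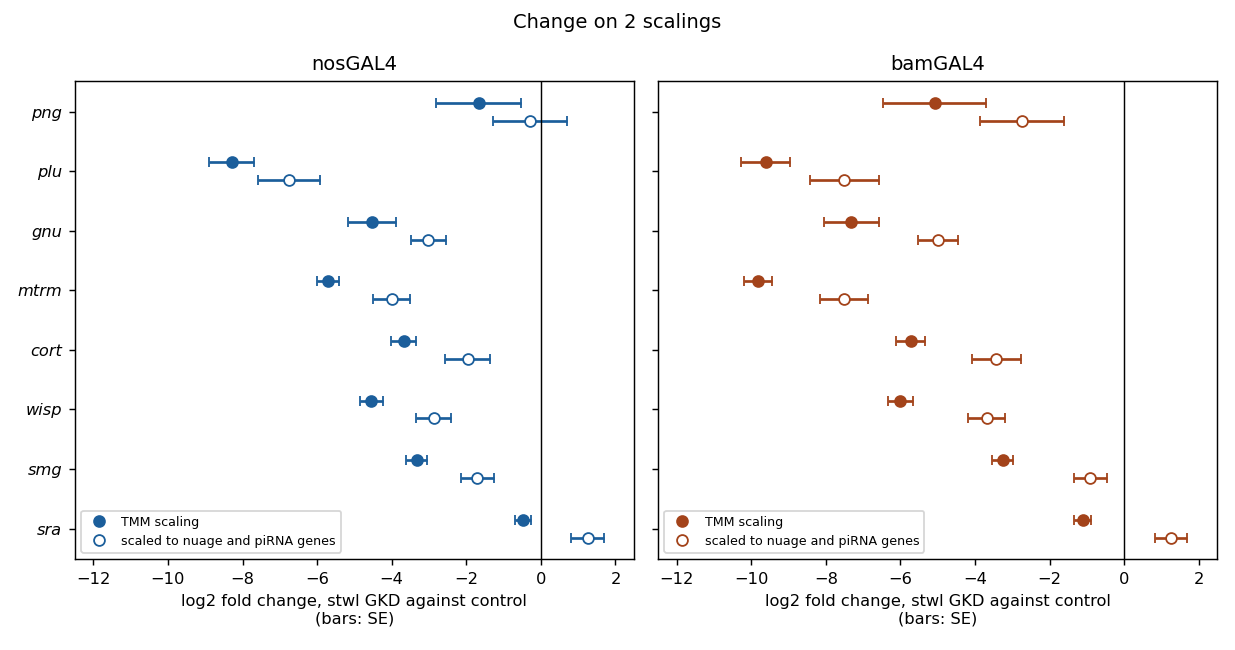
Log2 fold change of each gene, stwl GKD against control (horizontal axis; bars, SE), with TMM scaling (filled) and with libraries scaled to 10 nuage and piRNA genes (open), for nosGAL4 on the left and bamGAL4 on the right. Every open point lies to the right of its filled point; mtrm remains at -4.0 and -7.52, and sra crosses 0 to 1.25 and 1.26.

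Genes that work with these 8 are given by list, to be read against the all-gene shares of 25.7% lower and 33.5% higher with nosGAL4 and 33.1% lower and 35% higher with bamGAL4. Of 32 partners in the meiotic cell cycle and the APC/C, 23 fell and 1 rose with nosGAL4, and 25 fell and 0 rose with bamGAL4 (median log2 fold changes -1.48 and -2.48; edgeR, same test). The 3 with the highest control level per kb were CycB, CycA and mts. The mitotic cyclin CycB was at 1810 to 2700 CPM in the 4 control libraries, at 207 and 56.5 CPM in nosGAL4 stwl GKD and at 33.7 and 40.6 CPM in bamGAL4 stwl GKD. Its log2 fold change was -4.25 with nosGAL4 (SE 0.55, adjusted p = 0.000248) and -5.66 with bamGAL4 (SE 0.59, adjusted p = 5.09e-05). The other mitotic cyclin gene, CycA, fell too (-3.76 and -4.91), and the phosphatase subunit gene mts did not pass the test (0.32, adjusted p = 0.252, and 0.04, adjusted p = 0.881).

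Of 27 genes of the oocyte spindle and the early nuclear cycles, 24 fell and 1 rose with nosGAL4 (median -2.19), and 23 fell and 2 rose with bamGAL4 (median -2.46), beside the same all-gene shares of 25.7% and 33.1% lower. The germline thioredoxin gene dhd, needed for the sperm nucleus after fertilisation, was at 1590 to 3160 CPM in controls, 173 and 101 CPM in nosGAL4 stwl GKD and 2.84 and 6.06 CPM in bamGAL4 stwl GKD. It fell by 3.64 with nosGAL4 and fell by 9.34 with bamGAL4, and like mtrm it differed between drivers (5.70, SE 0.54, adjusted p = 0.0011, edgeR). The maternal tubulin gene alphaTub67C fell with both drivers (-4.09 and -7.44), as did the nucleoplasmin gene Nlp (-0.94 and -2.36).

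Of 26 genes of maternal mRNA translation and decay, 10 fell and 8 rose with nosGAL4 (median 0.00) and 10 fell and 8 rose with bamGAL4 (median -0.45). With bamGAL4 these counts are near the all-gene shares of 33.1% lower and 35% higher, so they are no result about the list. The RNA helicase gene me31B fell (-2.54 and -3.46), as did its partner tral (-2.84 and -3.16), whereas the poly(A)-binding protein gene pAbp rose by 1.58 (adjusted p = 0.0022) and 1.25 (adjusted p = 0.00666). Of 17 genes of calcium, calmodulin and calcineurin signalling, 2 fell and 10 rose with nosGAL4 (median 1.18), and 1 fell and 11 rose with bamGAL4 (median 1.30), where 33.5% and 35% of all genes rose. The calmodulin gene Cam rose with nosGAL4 (1.27, adjusted p = 0.00146) and not detectably with bamGAL4 (0.49, adjusted p = 0.0953), and the calcineurin genes CanB2 and CanA-14F passed with neither driver. Summed muscle and neuron marker RNA was higher in the same libraries, and its part in the calcium list was not tested.

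**Figure D5:**
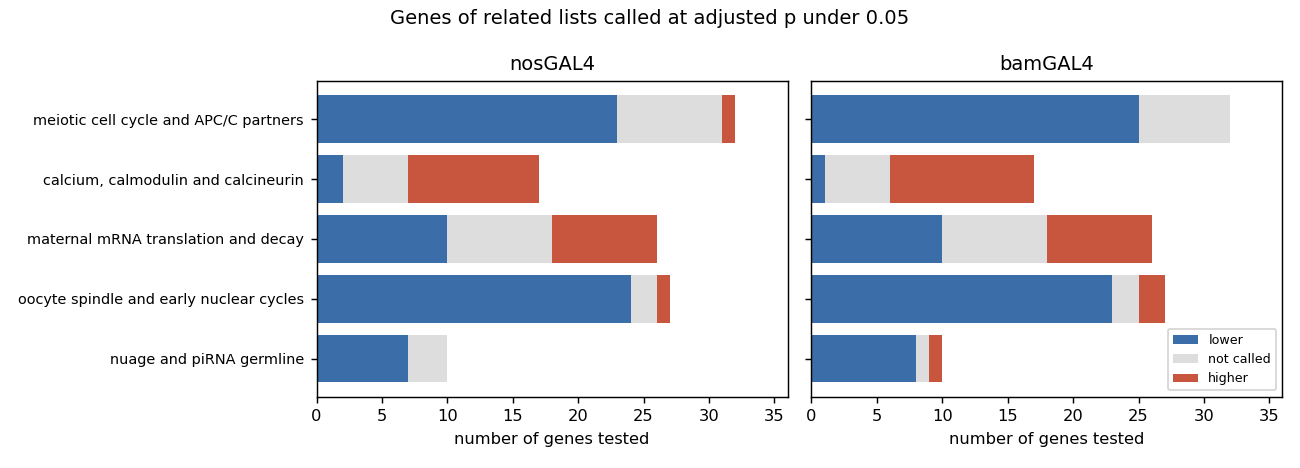
Number of genes (horizontal axis) called lower (blue), not called (grey) and called higher (red) at an adjusted p under 0.05 in each related gene list, stwl GKD against control, for nosGAL4 on the left and bamGAL4 on the right. The spindle list is lower in 24 and 23 of 27 genes, and the calcium list is higher in 10 and 11 of 17.

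These splits depended on the scaling. Scaled to the 10 nuage and piRNA genes, the meiotic partners had 12 lower and 8 higher with nosGAL4 and 9 lower and 14 higher with bamGAL4. The spindle list had 11 lower and 4 higher, then 8 lower and 6 higher, the maternal mRNA list 4 lower and 16 higher, then 4 lower and 18 higher, and the calcium list 0 lower with 15 and 17 higher. On that scaling 68.7% and 77% of all genes were higher and 3.27% and 3.18% lower, so the higher counts of the maternal mRNA list are no more than the background. The nuage list itself, used for that scaling, had 7 of 10 genes lower and 0 higher with nosGAL4 and 8 lower and 1 higher with bamGAL4 under TMM.

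Across the 8 libraries the pattern of each gene was compared with that of every other tested gene by the root mean square (RMS) difference of centred log2 CPM, as a description. All points share these libraries and the contrast between controls and GKD dominates them. Among the 8 genes wisp and cort were closest (0.64), followed by gnu and wisp (0.76), and plu and sra were farthest apart (4.07).

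Outside the 8, sra had the closest neighbours, Zif (0.0757) and CG33506 (0.0996), and smg followed with Pen (0.174) and the cyclin gene CycB3 (0.222). For wisp they were clos (0.248) and Muc4B (0.293), for cort rhi (0.412) and Trf4-2 (0.434), and for gnu the maternal gamma-tubulin gene gammaTub37C (0.44) and otu (0.441). Neighbours of mtrm were CG13084 (0.419) and CG14309 (0.503), and those of plu were CG10163 (0.514) and CG43965 (0.583). The gene png had dah (0.433) and stil (0.473) nearest. The mean level of dah was 73.5 CPM in nosGAL4 control, 28.5 CPM in nosGAL4 stwl GKD, 90.1 CPM in bamGAL4 control and 3.43 CPM in bamGAL4 stwl GKD.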

How the data were processed

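The authors deposited estimated counts per gene for each library. Salmon 1.2.1, STAR 2.7.5b, Trim Galore 0.6.6, FastQC 0.11.8 and the build dm6 are named by the submitters' processing notes, but what each tool was used for, the annotation and the strand setting were not given in the sources used here. Estimated counts were rounded to integers before fitting. Genes were kept by filterByExpr (minimum count 10, minimum total 15), and edgeR 4.0.16 (R 4.3.3) fitted 1 robust quasi-likelihood model of the 4 groups to all 8 libraries (TMM; 4 residual degrees of freedom; prior count 0.125), with Benjamini-Hochberg adjustment over 8957 genes and a threshold of 0.05 in each of 5 contrasts. The SE is the log2 fold change over the square root of F. The procedure was also run on simulated counts in which a small share of genes was changed, up and down in equal number. The changes here are far broader, so that run does not check the scaling or the genes with few counts. CPM values use TMM library sizes, and exon lengths come from the annotation, in which 14048 of the 14094 gene IDs were found.

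The 8 genes and all gene and marker lists were chosen with earlier results of these data known. Named genes are the 8, the 3 of each related list with the highest mean control CPM per kb, and the 2 genes most like each of the 8 by RMS difference; polo, spn-E, papi and the markers Fas3, zfh1, slbo, elav, cpx and Appl were named after their values were seen. Alternatives were other scalings, DESeq2 1.42.0, other filters, a fit of the 4 libraries concerned, a replicate block, a correction for exon length and leaving out each library. No 2 libraries of a group agreed within counting noise. Sequences and promoter motifs were not analysed here.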

Additional observations from a re-analysis of the deposited data

Results flagged for a closer look

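The effect on mtrm differed between the drivers by a test of the difference itself. The nosGAL4 effect minus the bamGAL4 effect was 4.11 on the log2 scale (SE 0.47, adjusted p = 0.0031, edgeR), with 4.59 and 5.04 CPM in nosGAL4 stwl GKD and 0.266 and 0.397 CPM in bamGAL4 stwl GKD. Over the alternatives the difference was 2.72 to 4.40 and the adjusted p 9.07e-07 to 0.0353, so the call held in each. The bamGAL4 side rests on 3 and 4 counts.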

How the results depend on the processing

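The counts of the 8 genes called lower with each driver stayed at 6 to 7 with nosGAL4 and 7 to 8 with bamGAL4 over the alternatives, except that scaling to nuage genes gave 5 with bamGAL4 and added 1 called higher with each driver. The replicate block gave 6 and 8. Deviations of libraries with the same number correlated across genes at -0.029 (nosGAL4) and 0.00704 (bamGAL4). No shared replicate effect was seen, but this cannot exclude that libraries of the same number were prepared together. For the difference between drivers, the number higher was 4 in DESeq2, among 4.95% of all genes in its test. It was 3 without a filter (289 of 11590 genes higher) and 2 with the length correction (62 of 8919). With ribosomal protein scaling 1 was lower (smg), where 3359 of 8957 genes were lower, so this is no more than the background. Leaving out a library, the difference was 3.84 to 4.40 for mtrm and 1.71 to 2.44 for cort. Between controls, 2 were lower in DESeq2 (7.09% of all genes in its test), in the 4 libraries alone (462 of 7657 genes) and with ribosomal protein scaling. In the last, 2948 of 8957 genes were lower, so these 2 are no more than the background. With the length correction 0 were lower. Leaving out a library, wisp was -1.196 to -0.556 and smg -0.753 to -0.688 between controls. Between GKD groups, 0 were lower in the 4 libraries alone, where 41 of 8690 genes were lower. Leaving out a library, mtrm was -4.115 to -3.549 and wisp -2.524 to -2.061 between GKD groups.

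Directions turned for these log2 values. Between controls, plu was -0.065 with RLE size factors, -0.12 with library totals, -0.92 with ribosomal protein scaling, -0.064 in DESeq2, -0.0056 with the stricter filter, -0.043 in the 4 libraries alone, -0.66 with the length correction, and -0.22 to 0.32 leaving out a library. Ribosomal protein scaling also gave png -0.42, cort -0.48, mtrm -0.67 and sra -0.66 there, the length correction mtrm -0.23, and gnu was 0.24 with nuage scaling and -0.49 to 0.22 leaving out a library. In the difference between drivers, ribosomal protein scaling gave plu -0.029 and sra -0.75, nuage scaling sra -0.0066, the length correction smg 0.58, and leaving out a library png -0.60 to 4.36, plu -2.25 to 3.51 and smg -0.50 to 0.24. Between GKD groups sra was 0.091 with ribosomal protein and 0.64 with nuage scaling, smg 0.41 with nuage scaling, and leaving out a library png -3.85 to 1.12 and plu -3.49 to 2.26. Among the fits leaving out a library, the turned values of png and plu in the comparisons of GKD groups and of drivers were those without nosGAL4 stwl GKD replicate 1. With nuage scaling sra was 1.25 and 1.26 against control. The cause was not tested. Ribosomal protein scaling moved the median of all genes by -0.53 with nosGAL4 and 0.87 with bamGAL4. Depth limits the fold changes of plu, at 1 to 2 summed counts in a GKD group, and of mtrm, at 7 in bamGAL4 stwl GKD.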
